A study of Rattus norvegicus with 2 samples.

Results

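Janus kinases and Stat factors carry signals from cytokine receptors at the cell surface to the nucleus. The genes described here are the Stat factors Stat2, Stat3, Stat5a, Stat5b and Stat6 and the Janus kinases Jak1, Jak2, Jak3 and Tyk2, 9 of the 16783 gene symbols in the expression table. They were chosen by name, as every row of the table whose gene symbol was one of these 9, which gave 11 transcript rows. The study asked what an overexpressed calcium channel beta4 subunit does to gene expression in H9c2 cells, a line first grown from the heart of rat embryos. The Cacnb4 library was made from cells given a beta4 (Cacnb4) plasmid, and its counterpart from cells given empty vector, both of rat strain BD1X. The cells in both are from a single line, all of them were transfected, and the labels give neither the time after transfection nor the share of cells that took up plasmid. With 1 library per group no difference below has a replicate check, no test was run, and fewer cells making a transcript cannot be told apart from less of it per cell.

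A cytokine receptor has no kinase activity of its own. Janus kinases bound to its inner tails phosphorylate each other, the receptor and then a Stat factor, which pairs up, enters the nucleus and binds DNA. Tyk2 and Jak1 serve the receptor for type I interferons, which acts through Stat2, another Stat and Irf9 as a complex named ISGF3. Receptors of the interleukin 6 family act mainly through Jak1 and Stat3, receptors for growth hormone and prolactin through Jak2 and the Stat5 pair, and interleukin 4 and 13 receptors through Stat6. The genes that Stat factors switch on include their own inhibitors, the Socs proteins.

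Cacnb4 was at 6266 FPKM (fragments scaled to transcript length and sequencing depth) in the Cacnb4 library and at 4.37 FPKM in the empty vector library, as the labels say. The libraries held 14939784 mappable reads with Cacnb4 and 13569897 with empty vector. A gene is called measured where either library had it at 1 FPKM or above. Of 9 myoblast and muscle markers 8 were measured, and 0 of these differed 2-fold. Of 6 cardiomyocyte markers 1 was measured, Gata4, at 3.05 FPKM with Cacnb4 and 4.05 FPKM with empty vector. The other 5 of these 6 were below 1 FPKM in both libraries. Cardiac troponin T (Tnnt2), listed with the muscle markers, was at 309 FPKM with Cacnb4 and 214 FPKM with empty vector, and cardiac actin (Actc1) at 192 FPKM with Cacnb4 and 225 FPKM with empty vector. The labels give the tissue as myocardium. Of the cardiomyocyte list only Gata4 was measured, while Tnnt2 and Actc1 come from the myoblast and muscle list. From that list too, Myod1 was at 101 FPKM with Cacnb4 and 89.8 FPKM with empty vector. Myog was at 71.9 FPKM with Cacnb4 and 51.3 FPKM with empty vector, while Myf5 was below 1 FPKM in both. Myh6, the myosin of atrial and rodent ventricular muscle, was at 0.0974 FPKM with Cacnb4 and 0.0407 FPKM with empty vector. Leukocytes are rich in Jak3 and many cytokine receptors. The 7 of 8 listed leukocyte markers that had a value summed to 11.5 FPKM with Cacnb4 and 10.3 FPKM with empty vector, of which Cd14 made up 9.61 FPKM with Cacnb4 and 8.76 FPKM with empty vector. Ptprc, which marks nearly every leukocyte, was at 0.0846 FPKM with Cacnb4 and 0.0191 FPKM with empty vector, and Lyz2 was listed at 0 with Cacnb4 and was at 0.504 FPKM with empty vector. Endothelial markers summed to 0.193 FPKM with Cacnb4 and 0.106 FPKM with empty vector, and neuronal and glial markers to 0.509 FPKM with Cacnb4 and 0.608 FPKM with empty vector.

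Stat2 stood apart from the other 8 genes. It was at 127 FPKM in the Cacnb4 library and at 25.7 FPKM in the empty vector library, 4.96 times as much with Cacnb4. The log2 ratio of FPKM + 1, the scale used for all ratios called log2 below, was 2.27. All 9 genes were measured, and 1 of the 9, Stat2, was higher with Cacnb4 by 2-fold or more, as were 1.94% of the 9539 measured genes. None of the 9 was 2-fold lower or more, against 1.08% of measured genes. A log2 ratio as high as that of Stat2 was found in 70 measured genes, Stat2 included. By level it was gene number 736 among measured genes in the Cacnb4 library and number 3106 in the empty vector library.

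**Figure D1:**
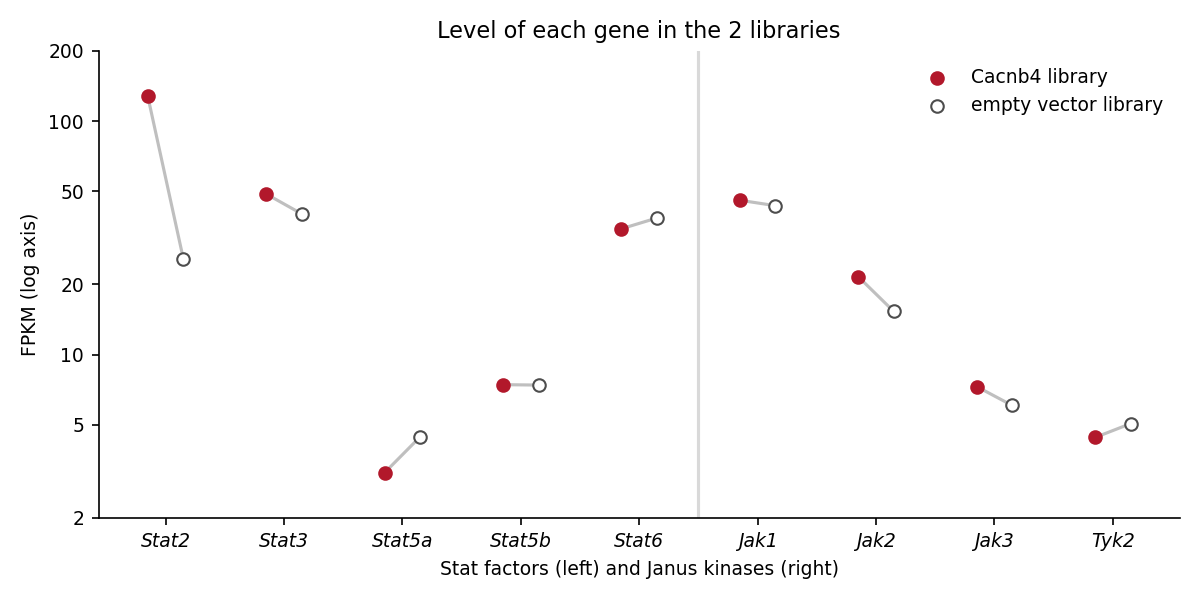
FPKM of the 5 Stat factors and 4 Janus kinases on a log axis, with the Cacnb4 library as filled points and the empty vector library as open points, 1 library each and a line joining them. Stat2 stood at 127 FPKM with Cacnb4 and 25.7 FPKM with empty vector, while the lines of the other 8 genes are short.

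Among all 9 genes the order of levels was headed by Stat2 in the Cacnb4 library, followed by Stat3, Jak1, Stat6 and Jak2. In the empty vector library the order was Jak1, Stat3, Stat6, Stat2 and Jak2. The last 4 places were the same in both libraries, with Stat5b, Jak3, Tyk2 and Stat5a at the bottom. FPKM is scaled to transcript length, so these levels can be set side by side, but neighbours such as Jak1 and Stat3 lie close and the spread between cultures is unknown. Stat2 made up 57.6% of the summed FPKM of the 5 Stat factors with Cacnb4 and 22.2% with empty vector. Without Stat2, the other 4 Stat factors summed to 93.9 FPKM with Cacnb4 and 90.3 FPKM with empty vector.

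The authors' deposited table gives each transcript a p-value and a q-value that compare read numbers between 2 libraries and do not test the conditions. It marked 1 of the 11 rows, that of Stat2, with a q-value of 1.06e-09, and 0.696% of all 32767 rows. A smaller q-value than that of Stat2 was given to 37 rows in the authors' deposited table. No other row of the 9 genes had an unadjusted p-value below 0.05 in the authors' deposited table. Among them, 2 rows, transcript 2 of Stat6 and of Jak2, may not have been tested. The authors' deposited pathway table annotates 32 genes, of which Stat2 was the single gene assigned to Jak-STAT signaling, and this pathway was not among the 10 that the table lists for higher genes.

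Stat2 lies on chromosome 7 from 1564384 to 1580652 in build rn4, as the expression table gives it. Its neighbours within 10 kb stayed low. Apof, which lies 431 bases from Stat2, was at 0.492 FPKM with Cacnb4 and 0.0885 FPKM with empty vector, and Il23a, a cytokine subunit gene, was at 0.697 FPKM with Cacnb4 and 0.746 FPKM with empty vector. The measured genes nearest to Stat2 by level in the 2 libraries, as distance in log2(FPKM + 1), were Sp110 at a distance of 0.22, Gbp2 at 0.48 and Isg20 at 0.61. Sp110, a nuclear body protein, was at 109 FPKM with Cacnb4 and 26.0 FPKM with empty vector. Gbp2, an interferon-induced GTPase, was at 103 FPKM with Cacnb4 and 19.6 FPKM with empty vector. Isg20, an exonuclease that degrades viral RNA, was at 90.8 FPKM with Cacnb4 and 33.4 FPKM with empty vector. With 2 libraries this likeness says only that both levels were close.

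The sequence upstream of Stat2 is shown because Stat2 was the member that differed most. Of its window in RefSeq's promoter table for assembly GRCr8, the 185 bases at chr7:1286840-1287024 on the plus strand lie before the gene's start in RefSeq's gene table. Capitals mark the letters CCAAT and GGGCGG on either strand, which were looked for after the stretch had been seen.
Stat2: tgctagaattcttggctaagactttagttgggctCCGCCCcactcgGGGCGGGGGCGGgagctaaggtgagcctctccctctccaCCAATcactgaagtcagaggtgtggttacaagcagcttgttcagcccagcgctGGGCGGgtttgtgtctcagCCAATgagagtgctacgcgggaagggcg

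The stretch holds CCAAT 2 times and GGGCGG 4 times. In the first 185 bases of all 33469 promoter windows, CCAAT occurred in 26.7% and at least as often as for Stat2 in 5.87%. For GGGCGG these shares were 21.8% and 1.47%. The interferon-stimulated response element, which ISGF3 binds, was searched as GAAA, 2 bases of any kind and GAAA. The gamma-activated site, which Stat pairs bind, was searched as TTCNNNGAA and in a wider form with 4 bases of any kind in the middle. All were searched on both strands over windows of 250 bases before to 50 after each start. The response element was in 3.92%, TTCNNNGAA in 8.87% and its wider form in 7.28% of all windows. Windows were found for 6 of the 9 genes, Stat2, Stat3, Stat5a, Stat5b, Stat6 and Jak2, and these letters were in 0 of the 6. That says only that these letters are not in these windows.

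The genes through which Stat2 is best known to act were all higher with Cacnb4. In the list of 12 genes bound by Stat2 together with Irf9, all 12 were measured and 12 were 2-fold or more higher with Cacnb4. Of all measured genes 1.94% were that much higher. The median log2 ratio of the 12 was 3.20, where the median of all measured genes was -0.03. Their log2 ratios ran from 2.08 for Ifi35 to 4.20 for Ifit3, and 11 of the 12 lay above the 2.27 of Stat2 itself. Ifit3, an RNA-binding antiviral protein, was at 428 FPKM with Cacnb4 and 22.3 FPKM with empty vector. Isg15, a ubiquitin-like protein joined to other proteins, was at 285 FPKM with Cacnb4 and 18.0 FPKM with empty vector. Ifit2, a relative of Ifit3, was at 133 FPKM with Cacnb4 and 10.5 FPKM with empty vector, and Bst2, or tetherin, which holds budding virus at the cell surface, at 50.1 FPKM with Cacnb4 and 3.47 FPKM with empty vector. Oas1a, which makes the short nucleotide chains that switch on RNase L, was at 12.2 FPKM with Cacnb4 and 0.470 FPKM with empty vector. Mx2, a dynamin-like GTPase, was at 276 FPKM with Cacnb4 and 28.3 FPKM with empty vector. Rsad2, known as viperin, was at 19.8 FPKM with Cacnb4 and 1.88 FPKM with empty vector. The authors' deposited table marked a row of 11 of the 12 and gave Ifi35 a q-value of 0.758. These genes were listed with their higher values already known from earlier results, so their count is no independent evidence.

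The response element stood in the promoter windows of most of these targets that had a window. Windows were found for 7 of the 12 targets and the element, forward or reversed, was in 5 of the 7, beside 3.92% of all windows. The list holds genes known to be bound by Stat2 with Irf9, and this element is what that complex binds. A match in most of them was thus likely from how the list was made and is no independent evidence. The matches are shown because this element is where Stat2 reaches DNA. Each line gives 30 bases from RefSeq's table for GRCr8, in the gene's own direction, with the 10 letters of the match in capitals. The stretches are chr16:18255079-18255108 on the minus strand for Bst2, chr1:241527272-241527301 on the plus strand for Ifit3, chr1:205800073-205800102 on the minus strand for Irf7, chr12:41330415-41330444 on the plus strand for Oas1a and chr6:48788248-48788277 on the minus strand for Rsad2.
Bst2: ccctttccagGAAAATGAAActgaaaggtg
Ifit3: tttaagtctgTTTCAGTTTCtagtttccac
Irf7: acagtttaggTTTCATTTTCccgagacgca
Oas1a: cccctctcggGAAATGGAAActgaaaatct
Rsad2: ctggttcaacTTTCATTTTCagaaaacaga

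The matches began 131, 44, 69, 41 and 147 bases before the start that the promoter table uses for Bst2, Ifit3, Irf7, Oas1a and Rsad2, in that order. In Bst2 and in Oas1a a second match overlaps the one shown. TTCNNNGAA was in 2 of the 7 target windows, also those of Bst2 and Oas1a, beside 8.87% of all windows. In Bst2 it overlaps the match shown. Its wider form was in 0 of the 7. Over all measured genes with a window, the letters of the response element were in 37.0% of the 108 genes that were 2-fold or more higher and in 2.91% of all 7037. For TTCNNNGAA the share was 15.7% of the higher genes and 6.64% of all, and for its wider form 13.0% of the higher genes and 5.02% of all. A match is a description of letters and does not show that a factor sits there.

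The 4 Janus kinases all stayed within 2-fold, as did most measured genes, of which 1.94% were 2-fold higher and 1.08% lower. Jak1, the kinase shared by the widest range of cytokine receptors, was at 45.8 FPKM in the Cacnb4 library and 43.4 FPKM in the empty vector library. It made up 57.9% of the summed FPKM of the 4 kinases with Cacnb4 and 62.2% with empty vector. Tyk2, which sits on the Ifnar1 chain of the type I interferon receptor, was at 4.42 FPKM with Cacnb4 and 5.06 FPKM with empty vector, with a log2 ratio of -0.16. A row with no gene name, 7303 bases from Jak1, was at 43.4 FPKM with Cacnb4 and 55.8 FPKM with empty vector. A log2 ratio at least as far from 0 as that of Jak1 was found in 73.4% of measured genes, and one as far as that of Tyk2 in 47.2%.

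Jak2 had the highest log2 ratio of the 8 genes other than Stat2. Jak2, the kinase of the growth hormone and erythropoietin receptors and of the Ifngr2 chain, was at 21.6 FPKM with Cacnb4 and 15.3 FPKM with empty vector, 1.41 times as high, and its log2 ratio was 0.47. Of all measured genes 9.84% had a log2 ratio at least as far from 0. Jak3, the kinase of receptors that hold the common gamma chain and best known from lymphocytes, was at 7.30 FPKM with Cacnb4 and 6.06 FPKM with empty vector. The authors' deposited table gave p-values of 0.809 for Jak1, 0.421 for Jak3 and 0.558 for Tyk2.

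Stat3 and the Stat5 pair lie next to each other on chromosome 10, Stat3 with a ratio above 1 and Stat5a with a ratio below 1. In rn4, Stat5b runs from 89716623 to 89743134, Stat5a from 89795403 to 89819731 and Stat3 from 89821077 to 89872970, with 1346 bases between Stat5a and Stat3. Stat3, the factor of the interleukin 6 family, was at 48.7 FPKM with Cacnb4 and 40.0 FPKM with empty vector, a log2 ratio of 0.28. Stat5a, first known as a prolactin-driven factor of the mammary gland, was at 3.12 FPKM with Cacnb4 and 4.45 FPKM with empty vector, with a log2 ratio of -0.40, the lowest of the 9. Stat5b, the main growth hormone factor of rodent liver, was at 7.43 FPKM with Cacnb4 and 7.40 FPKM with empty vector. Stat5a and Stat5b are near copies, so the counting may have shared reads out between them, which leaves the value of each uncertain. The authors' deposited table gave Stat5a a p-value of 0.159 and a q-value of 0.922, and 13.2% of measured genes had a log2 ratio at least as far from 0.

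**Figure D2:**
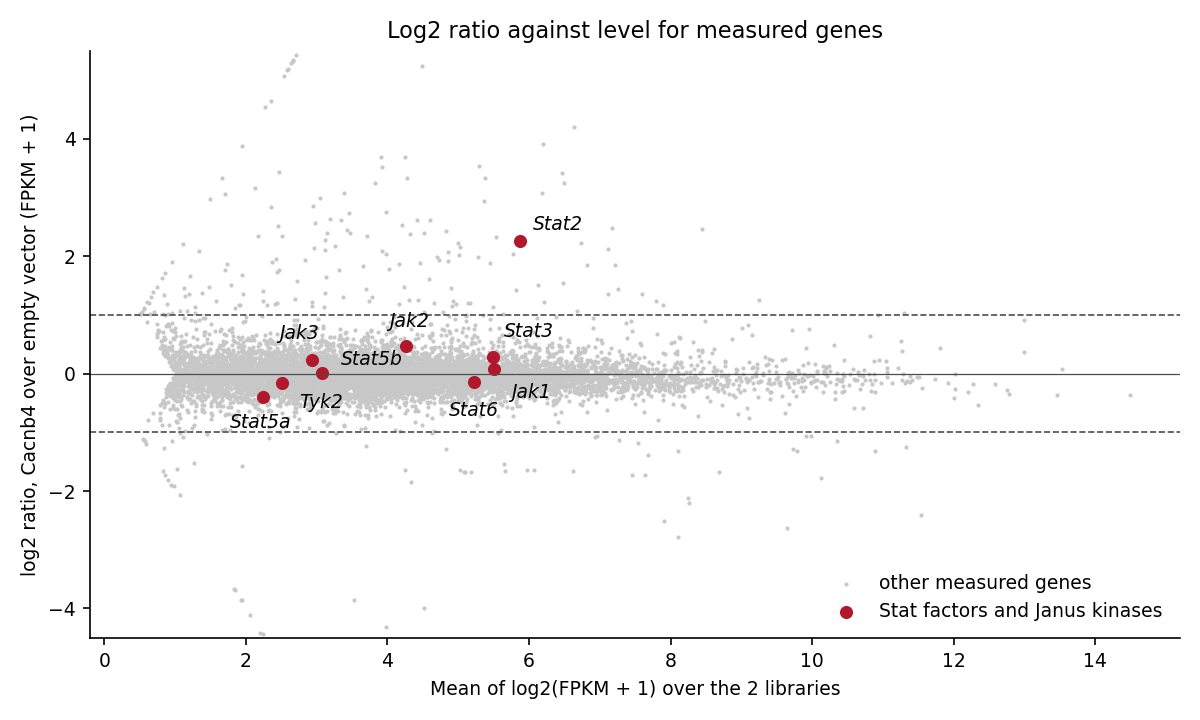
Log2 ratio of Cacnb4 over empty vector (FPKM + 1) against the mean log2(FPKM + 1) of the 2 libraries for measured genes, with the 9 Stat factors and Janus kinases as large labelled points and dashed lines at 2-fold. Stat2 lies at 2.27 and the other 8 between -0.40 and 0.47, inside the grey band of other genes, of which 48 fall outside the plotted range.

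The whole set of 9 had a median log2 ratio of 0.08, and 6 of the 9 were above 0. Without Stat2 the median of the other 8 was 0.04, and their ratios of FPKM ran from 0.702 for Stat5a to 1.41 for Jak2. Over all measured genes the median was -0.03 and 44.6% were above 0. The members' median thus lay close to that of all genes.

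Stat6 and Jak2 are each listed with 2 transcripts that share a locus. Transcript 1 of Stat6, the factor of interleukin 4 and 13, was at 8.50 FPKM with Cacnb4 and 6.68 FPKM with empty vector, while transcript 2 was at 26.1 FPKM with Cacnb4 and 31.8 FPKM with empty vector. The 2 transcripts therefore differed in opposite directions, and the gene's sum was 34.6 FPKM with Cacnb4 and 38.5 FPKM with empty vector. Transcript 2 made up 75.4% of the Stat6 sum with Cacnb4 and 82.6% with empty vector. Nab2, a corepressor of Egr factors, is listed with the same locus as Stat6 in rn4, so reads of the 2 genes may not be fully separated.

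Of Jak2, transcript 1 was at 9.77 FPKM with Cacnb4 and 7.51 FPKM with empty vector and transcript 2 at 11.8 FPKM with Cacnb4 and 7.79 FPKM with empty vector, so both were higher with Cacnb4. Transcript 2 made up 54.7% of the Jak2 sum with Cacnb4 and 50.9% with empty vector. The authors' deposited table gave transcript 1 a p-value of 0.681 for Stat6 and 0.375 for Jak2. For transcript 2 of each gene it lists a p-value and q-value of 1, which may stand for a row that was not tested. How the 2 transcripts of each gene differ in sequence is not described by the table.

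**Figure D3:**
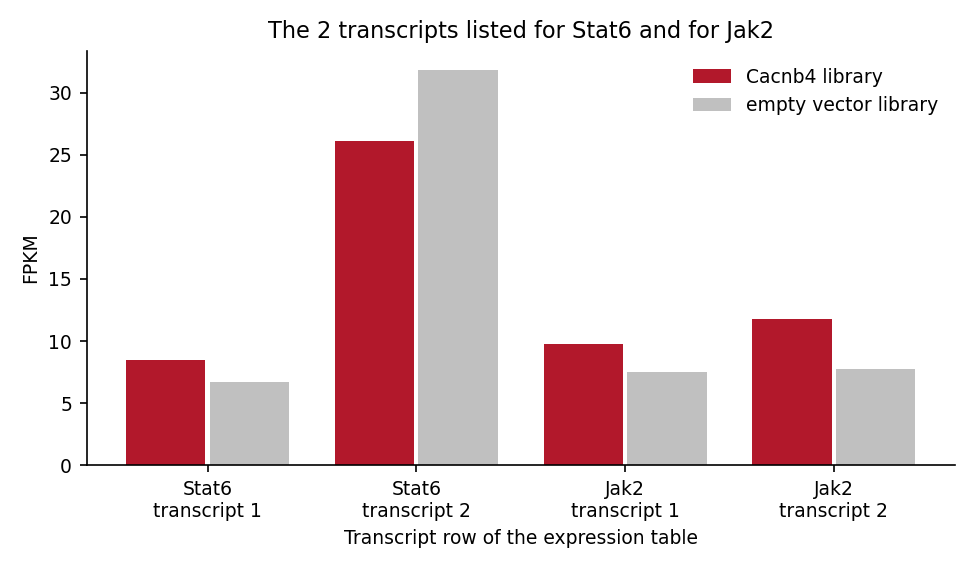
FPKM of the 2 transcripts listed for Stat6 and for Jak2, with the Cacnb4 library as the left bar and the empty vector library as the right bar of each pair, 1 library each. Transcript 2 of Stat6 stood at 26.1 FPKM with Cacnb4 and 31.8 FPKM with empty vector, and the other 3 transcripts were higher with Cacnb4.

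The measured interferon receptor chains differed little. Of 6 listed chains 4 were measured, and the median log2 ratio was 0.01. None of them differed 2-fold, where 1.94% of all measured genes were 2-fold higher and 1.08% lower. Ifnar2 and Ifnlr1 had no value. Ifnar1, the chain that holds Tyk2, was at 16.1 FPKM in both libraries. Ifngr1, the chain of the interferon gamma receptor that holds Jak1, was at 36.1 FPKM with Cacnb4 and 33.3 FPKM with empty vector. Ifngr2, its partner that holds Jak2, was at 9.67 FPKM with Cacnb4 and 9.46 FPKM with empty vector. Il10rb, a chain shared by interleukin 10 and type III interferon receptors, was at 19.7 FPKM with Cacnb4 and 20.2 FPKM with empty vector.

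Of 7 receptors of the interleukin 6 family, 5 were measured, with a median log2 ratio of 0.17. Of these 0 differed 2-fold, beside the same small shares of all measured genes. The shared chain Il6st, known as gp130, was at 56.1 FPKM with Cacnb4 and 51.8 FPKM with empty vector. Osmr, the oncostatin M receptor, was at 11.7 FPKM with Cacnb4 and 7.70 FPKM with empty vector, the largest log2 ratio of the list at 0.54. Il11ra1, of the interleukin 11 receptor, was at 15.5 FPKM with Cacnb4 and 13.0 FPKM with empty vector. Lifr, the receptor of leukemia inhibitory factor, was at 3.46 FPKM with Cacnb4 and 2.95 FPKM with empty vector, and Il27ra at 0.904 FPKM with Cacnb4 and 1.19 FPKM with empty vector.

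Jak3 was measured, while listed receptors of the common gamma chain and interleukin 4 type stayed below 1 FPKM where they had a value. Of these 9 listed receptors 6 had a value, and 0 of the 6 were measured. Il2rb, Il4r and Il15ra had no value. Il2rg, the common gamma chain itself, was at 0.160 FPKM with Cacnb4 and 0.339 FPKM with empty vector. Of 8 listed receptors that signal mainly through Jak2 6 had a value and 0 were measured, with Epor at 0.183 FPKM with Cacnb4 and 0.266 FPKM with empty vector. The genes of these lists with no value were not analysed here. The Jak3 row does not share its locus with another gene, and its nearest neighbour, Insl3 at 676 bases, was at 1.16 FPKM with Cacnb4 and 0.951 FPKM with empty vector.

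Among 16 listed ligands 6 were measured and 2 were higher with Cacnb4 by 2-fold or more, with a list median of 0.40. Of all measured genes 1.94% were that much higher, and their median was -0.03. With 5 FPKM added instead of 1, or with a minimum of 5 FPKM, 0 of the ligands were at 2-fold. Ifnb1, the gene of interferon beta, was at 3.64 FPKM with Cacnb4 and 0.671 FPKM with empty vector. Il15 was at 4.31 FPKM with Cacnb4 and 1.44 FPKM with empty vector. Il6, which acts through Stat3, was at 11.2 FPKM with Cacnb4 and 7.10 FPKM with empty vector, and Lif of the same family at 18.4 FPKM with Cacnb4 and 15.9 FPKM with empty vector. None of the 6 was marked in the authors' deposited table, where Ifnb1 had a q-value of 0.357.

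Irf9, the DNA-binding partner of Stat2, was at 46.3 FPKM with Cacnb4 and 24.4 FPKM with empty vector, a log2 ratio of 0.90 that lies under 2-fold. Irf9 and Stat2 stood at similar levels with empty vector, while with Cacnb4 Stat2 was the higher of the pair. Nmi, a protein that binds Stat factors, was at 32.4 FPKM with Cacnb4 and 13.0 FPKM with empty vector. It was the single one of 5 measured partners and coactivators at 2-fold, where 1.94% of all measured genes were 2-fold higher. The authors' deposited table marked Nmi with a q-value of 0.0286. The coactivator Crebbp was at 4.91 FPKM with Cacnb4 and 4.18 FPKM with empty vector, and Ncoa1 at 10.1 FPKM with Cacnb4 and 8.43 FPKM with empty vector.

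**Figure D4:**
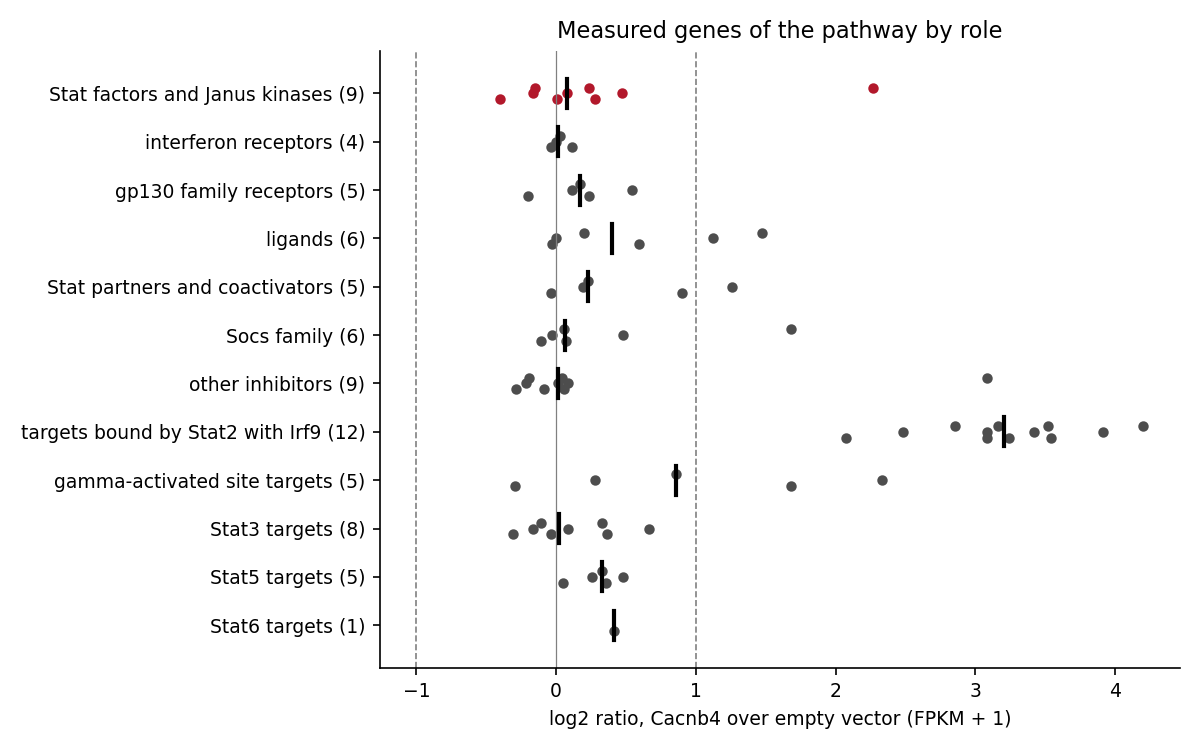
Log2 ratio of Cacnb4 over empty vector (FPKM + 1) for each measured gene of the pathway, by role, with the number of measured genes in brackets, black bars at the medians and dashed lines at 2-fold. The 12 targets of Stat2 with Irf9, listed with their higher values known, all lie above 2. All 4 interferon receptor chains and all 8 Stat3 targets lie within 2-fold, as do most measured genes.

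Of the inhibitors, Socs1 and Usp18 were 2-fold or more higher with Cacnb4, as were 1.94% of all measured genes. Socs1, which blocks Janus kinases directly, was the only 1 of 6 measured Socs family genes at 2-fold, at 5.93 FPKM with Cacnb4 and 1.16 FPKM with empty vector, with a q-value of 0.248 in the authors' deposited table. With 5 FPKM added instead of 1, 0 of the Socs family were at 2-fold. Socs2, an inhibitor of growth hormone signals, was at 7.81 FPKM with Cacnb4 and 5.34 FPKM with empty vector. Socs3, the inhibitor of gp130, was at 4.63 FPKM with Cacnb4 and 5.05 FPKM with empty vector. Socs6 was at 4.12 FPKM with Cacnb4 and 3.87 FPKM with empty vector. Of 9 other measured inhibitors 1 was at 2-fold, Usp18, which binds a chain of the interferon receptor and displaces Jak1, at 210 FPKM with Cacnb4 and 23.9 FPKM with empty vector. Pias2 was at 25.0 FPKM with Cacnb4 and 28.8 FPKM with empty vector. Pias3, which binds Stat3, was at 9.94 FPKM with Cacnb4 and 12.3 FPKM with empty vector, and the phosphatase Ptpn1, which acts on Jak2 and Tyk2, at 31.8 FPKM with Cacnb4 and 37.0 FPKM with empty vector. The median log2 ratio was 0.06 in the Socs family and 0.01 in the other inhibitors.

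Measured genes known as targets of Stat3, Stat5 and Stat6 did not reach 2-fold, as was so for most measured genes. Over all measured genes 1.94% were 2-fold higher and 1.08% lower, so 0 in such short lists says little. Of 12 listed Stat3 targets 8 were measured, with 4 above 0, 4 below 0 and a median log2 ratio of 0.02. Myc, a transcription factor of growth, was at 30.1 FPKM with Cacnb4 and 18.6 FPKM with empty vector, the highest log2 ratio of the list at 0.66. Ccnd1, the gene of cyclin D1, was at 84.5 FPKM with Cacnb4 and 105 FPKM with empty vector, Lbp, a binder of bacterial lipopolysaccharide, at 7.08 FPKM with Cacnb4 and 5.29 FPKM with empty vector, and the kinase gene Pim1 at 15.6 FPKM with Cacnb4 and 12.2 FPKM with empty vector. All 5 measured of 6 Stat5 targets had log2 ratios above 0 and below 0.48, with a median of 0.33. Of all measured genes 44.6% were above 0 and the median was -0.03, and 5 genes are few. Bcl6, a repressor, was at 7.19 FPKM with Cacnb4 and 5.40 FPKM with empty vector, and Bcl2l1, which protects from cell death, at 52.6 FPKM with Cacnb4 and 43.9 FPKM with empty vector. Of 7 Stat6 targets only Gata3 was measured, at 13.6 FPKM with Cacnb4 and 9.98 FPKM with empty vector. Pim1, Socs1, Socs2, Socs3 and Usp18 are 5 measured genes that stand in more than 1 list, so the 2-fold calls of Socs1 and Usp18 are each counted in a pair of lists.

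Genes of the gamma-activated site, which interferon gamma induces, were mixed. Of 7 listed, 5 were measured and 2 were higher by 2-fold or more, with a median log2 ratio of 0.85. These were Gbp2, given above, and Socs1. With 5 FPKM added instead of 1, 1 of the list was at 2-fold. Irf1, a transcription factor and early interferon target, was at 31.6 FPKM with Cacnb4 and 17.1 FPKM with empty vector, under 2-fold, and Irf8 was at 0.700 FPKM with Cacnb4 and 1.08 FPKM with empty vector. Cxcl9 and Ciita were not measured, with Ciita at 0.101 FPKM with Cacnb4 and 0.232 FPKM with empty vector. Ifng, the gene of interferon gamma, was not measured either, at 0.439 FPKM with Cacnb4 and 0.121 FPKM with empty vector. Over all lists together, 61 of 109 genes were measured, 17 of the 61 were higher with Cacnb4 by 2-fold or more and 0 were lower by as much, where 1.94% of all measured genes were higher and 1.08% lower. Of the 17, 12 are the targets of Stat2 with Irf9, which were listed with their higher values known, and 5 were among the 49 other measured genes. The other lists were also written with earlier results of these data known, so neither count is independent evidence.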

How the data were processed

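RNA of 2 H9c2 libraries was measured by sequencing, and groups were taken from the sample titles. The labels' protocols name column-purified RNA and Illumina libraries. Per the submitters' processing notes TopHat 1.4.1 and build rn4 were used, while the sources used here do not name the program behind the transcript levels. Per the file's footnote, the deposited read counts follow trimming of the 3' adaptor and a length minimum of 10 bases. The authors' deposited expression table names no unit, and its values were read as FPKM from its layout. The deposited p-values and q-values were copied and not recomputed. The deposited table does not say whether locus starts count from 0 or 1.

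FPKM was summed per symbol, leaving out 13533 rows without a gene name and 17 with names in the form of dates. The log2 ratio added 1 FPKM to each value, which understates the difference of low genes. All 9 members matched RefSeq's GRCr8 gene table. Named were the 9 members, up to 4 measured genes per list with the largest log2 ratio in size, and the 3 genes nearest to Stat2. Others, and a few members of the lists outside the rule, were named after their values were seen. The members and lists were chosen with earlier results of these data known. Other Stat genes are not reported here. Reads per gene are unknown here, and values carry no counting interval. The work was done in Python 3.11.15, numpy 2.4.6, pandas 2.3.3 and matplotlib 3.10.9.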

Additional observations from a re-analysis of the deposited data

How the results depend on the processing

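The member counts and the members' median were recomputed with 0.1 or 5 FPKM added before taking logs, with the minimum dropped or raised to 5 FPKM, with each gene's highest transcript instead of its sum, and with a rescaling by the median ratio of 0.976 over 7129 genes. Single members' log2 ratios were recomputed in those of these settings that leave the minimum alone. The pathway list counts were planned for the dropped minimum alone, and their other settings were chosen after seeing the data. Dropping the minimum could change none of the 16 values recomputed with it, since a gene below 1 FPKM in both libraries cannot reach 2-fold with 1 FPKM added and all members lie above it. Of 116 values from the other settings, 4 counts moved. A reversal was defined only for a log2 ratio of 2-fold or more, so Stat2 alone could have shown one, and it did not. Some of the 116 were fixed in advance as well. The highest transcript equals the sum where a gene has 1 row, and a raised minimum cannot lift a count of 0. With 5 FPKM added, the ligands had 0 genes at 2-fold, the Socs family 0 and the gamma-activated site targets 1. With a minimum of 5 FPKM the ligands had 0. All 12 targets of Stat2 with Irf9 were at 2-fold in each setting, and list genes at 2-fold numbered 14 to 17 over all lists. Stat2 stayed the single member at 2-fold, with log2 ratios between 2.11 and 2.31. Stat5a lay between -0.50 and -0.22 and Jak2 between 0.39 and 0.54, and none of the 9 changed sign. With a minimum of 5 FPKM, 8 members were measured and their median was 0.15. At a q-value below 0.01 the row of Stat2 is still marked, as its q-value given above fixes. Without replicates the spread between cultures is unknown.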
